A study of Canis lupus familiaris with 31 samples.

Results

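Complement transcripts of the blood were followed in every dog of the series together with C1QTNF6, a secreted protein of the C1q and tumor necrosis factor related family. The 10 genes are C1QA, C1QB, C1QC, C3, CFP, CFD, C3AR1, C5AR1, CD55 and C1QTNF6, and each was found by its symbol as 1 of 32704 rows of the table of counts. Of these, 7 were among the 13918 genes that passed edgeR's filter on low counts, and the C1q genes C1QA, C1QB and C1QC were not. C1QTNF6 was chosen by its case-control difference in these same dogs, and the other 9 genes were set around it as complement genes. The case-control values of all 10 genes are therefore given as descriptions that test nothing.

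RNA from whole blood was sequenced in 31 Miniature Schnauzers as 1 library per dog, from total RNA with ribosomal RNA removed by the methods, while the labels give the molecule as polyA RNA. The 13 cases (5 females and 8 males) carried the label of HTG, a lasting excess of triglycerides in fasting blood that is common in this breed, and the 18 controls (8 females and 10 males) had by the methods normal fasting triglycerides. By the study, all males had been castrated and all females except case_12 had been spayed. All were older dogs, and by the study the cases were older on average, though not significantly so. No dog carried an engineered allele or was given an agent by the study, and dogs on drugs that alter lipids had been left out. The disorder arose by itself, so that age, diet and body condition were not set by design.

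The deposited values were counts, with 14524659 to 41533599 per dog. Levels are given as CPM, the usual scaling of counts to library size, with TMM factors. The floor of detection was taken as 3 counts, which equalled 0.0722 to 0.207 CPM across the dogs before TMM factors were applied. With TMM factors, 3 counts were 0.0691 CPM in control_04, and 2 counts were 0.261 CPM in control_03. Markers of blood cells were plentiful in every dog. The summed level of 5 neutrophil markers ran from 3055 to 14792 CPM, that of 4 T cell markers from 125 to 385 CPM and that of 4 platelet markers from 110 to 716 CPM. The summed level of 4 hepatocyte markers was at most 0.519 CPM, with TTR at 0 in every dog, so that transcripts of liver, the main source of plasma complement, were near the floor. In 10 dogs, 5 of each group, the mean log2 CPM of 366 small RNA rows was at least 1.66, and in the other 21 dogs it was at most 1.40. By the methods, libraries of 5 cases and 5 controls had been prepared earlier, for a pilot. The labels do not name those dogs, and whether they are the dogs high in small RNA was not tested. As the libraries came from unsorted blood, fewer cells of a type and less RNA per cell cannot be told apart.

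Complement is a cascade of plasma proteins that coat a target for phagocytes, draw leukocytes and can lyse membranes. C1q, a hexamer built of A, B and C chains, starts the classical pathway when it binds antibody on a surface, and macrophages are a major source of it. C3 is the protein on which all pathways converge. In the alternative pathway, factor D (CFD) is the protease that completes the C3 convertase and properdin (CFP) stabilizes it. C3AR1 and C5AR1 are the receptors of the small fragments C3a and C5a on myeloid cells, and CD55, or decay-accelerating factor, takes convertases apart on the cells of the host. C1QTNF6 carries the same kind of globular C1q domain as the C1q chains and has been described as a regulator of the alternative pathway.

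The 7 genes that passed the filter differed widely in how much they varied between dogs. The SD of log2 CPM over the 31 dogs was 1.70 for C3 and 1.20 for C1QTNF6, and 99.5% and 96.9% of all genes tested had a smaller SD. It was 0.58 for C3AR1, 0.48 for CD55, 0.38 for C5AR1, 0.31 for CFP and 0.26 for CFD, beside a median of 0.37 over all genes tested. These SDs hold the case-control difference by which C1QTNF6 was chosen. Within groups the SD was 1.50 for C3 and 1.00 for C1QTNF6, above 99.1% and 93.5% of all genes tested, while CFP (0.30) and CFD (0.27) stayed below the median gene (0.36).

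**Figure D1:**
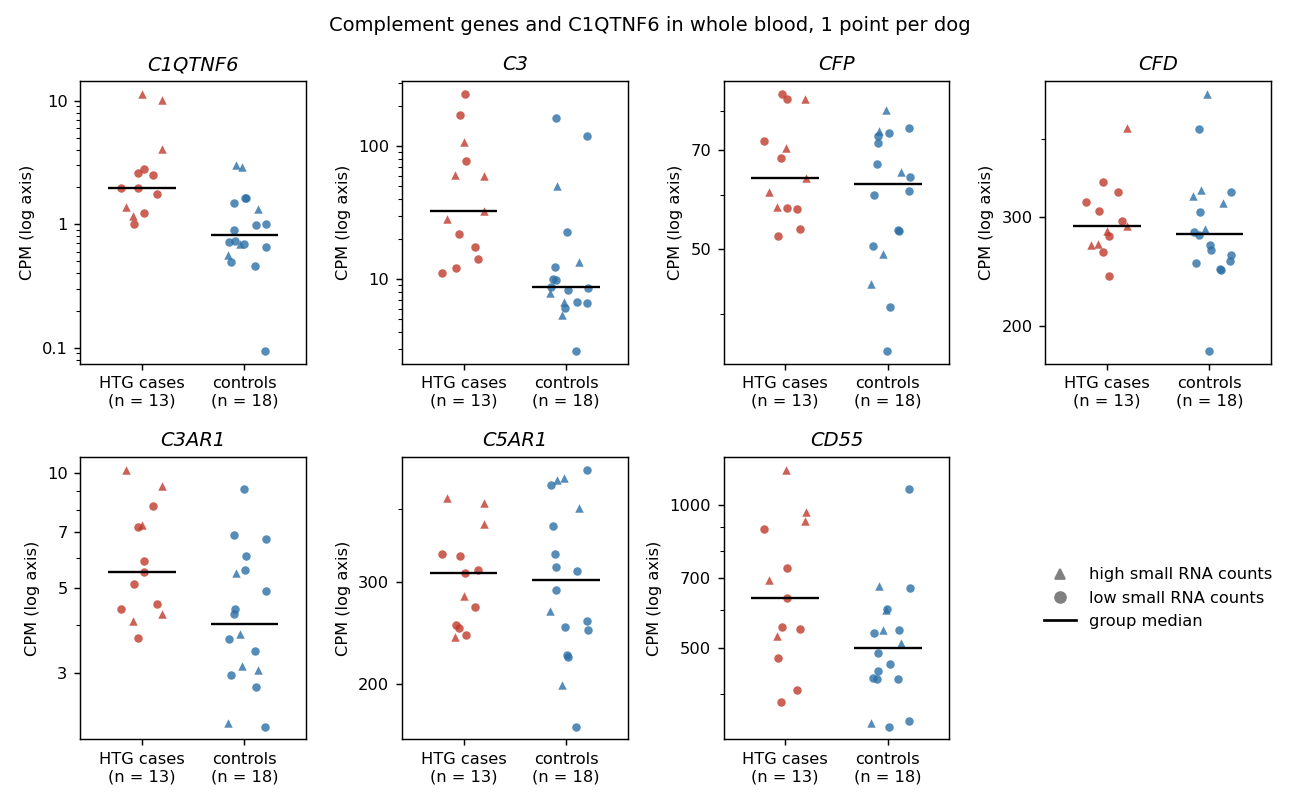
Level of the 7 genes that passed the filter on low counts, in CPM on a log axis, with 1 point per dog for the 13 HTG cases and the 18 controls, and the group median as a bar. Triangles mark the 10 dogs of the side with high small RNA counts. The highest C1QTNF6 values, 11.4 and 10.1 CPM, belong to 2 cases, C3 spans 2.90 to 246 CPM, and the groups overlap for every gene.

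C1QTNF6 (ENSCAFG00000032120) was low but counted in all dogs, with 2 to 251 counts. In the cases its lowest, median and highest levels were 1.01, 1.97 and 11.4 CPM. In the controls they were 0.094, 0.814 and 3.01 CPM. All 13 cases lay above the control median, as for 0.704% of all genes tested, and 11 controls lay below the lowest case. Only 3 cases lay above the highest control, so the groups overlapped. The highest levels were those of case_05 (11.4 CPM), case_09 (10.1 CPM) and case_06 (4.06 CPM), followed by control_03 (3.01 CPM) and control_13 (2.91 CPM). These 5 dogs were all male, and each belonged to the side with high small RNA counts. The lowest level, 0.094 CPM from 2 counts, was that of control_09. The level of control_03 came from 23 counts and the lowest TMM factor of all dogs (0.527).

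The log2 fold change of C1QTNF6, cases over controls, was 1.63 with a standard error (SE) of 0.37. By edgeR's quasi-likelihood test, 0 of the 7 genes passed an adjusted P of 0.05 in this contrast, where 0.0359% of all genes tested did, and 4 of 7 (C1QTNF6, C3, C3AR1 and CD55) had an unadjusted P under 0.05, all higher in cases, where 9.81% of all genes did in either direction and 5.04% higher in cases. limma-voom also called 0 of the 7, with the same number under 0.05. It called 0 of 13918 genes, with 1556 at an unadjusted P under 0.05, of which 940 were higher in cases. With DESeq2, 1 of 8 was called, which was C1QTNF6, beside 0.526% of all genes, and with the small RNA split as a covariate in DESeq2 it was called again (1.36, adjusted P = 0.0111). In edgeR its adjusted P was 0.0741 in all dogs and 0.0497 once the 2 dogs with the lowest scaling factors (control_03 and case_01) were left out. These calls come from the contrast by which C1QTNF6 was picked. The difference was 1.88 (SE 0.52) in males alone and 0.73 (SE 0.33) in females alone. The test of the difference between the sexes gave -1.16 (95% interval -2.55 to 0.22) for females minus males, with an adjusted P of 1.00 in edgeR. Platelet markers were also higher in cases. Of 6 listed, 4 had a row and were tested, and 0 were called by edgeR (adjusted P = 0.236 to 0.323). All 4 had an unadjusted P under 0.05 and higher levels in cases. Their sums were 216 to 716 CPM in cases and 110 to 558 CPM in controls. The difference of C1QTNF6 was 0.49 (SE 0.29) in a fit that also held the platelet score. The part of platelets in the difference was not tested.

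The C1q chains were close to the floor. C1QA (ENSCAFG00000031290) had 185 counts over the 31 dogs, 0 to 17 in a dog, and 2 dogs had none. C1QB (ENSCAFG00000032344) had 54 counts, at most 10 in a dog, and 14 dogs had none. C1QC (ENSCAFG00000014639) had 49 counts, at most 12 in a dog, and 20 dogs had none. The 3 chains, which assemble in equal numbers in the protein, were counted together in only 5 dogs and all absent in 1 dog. Their 288 counts made up 0.423 CPM of all libraries pooled.

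Median counts of C1QA were 8 in the cases and 4 in the controls, with ranges of 1 to 14 and 0 to 17. C1QB had median counts of 1 and 0. C1QC was counted in 3 of 13 cases and 8 of 18 controls. The case-control log2 fold changes were 0.43 (SE 0.45), 0.96 (SE 0.87) and 0.97 (SE 1.15) for C1QA, C1QB and C1QC in DESeq2. The adjusted P of C1QA was 0.814, and DESeq2 gave none for C1QB and C1QC. Of the 49 counts of C1QC, 40 were in the 13 females and 9 in the 18 males, and 23 were in case_12 and case_08, both female. By the study, case_12 was the only intact dog. The female minus male log2 difference of C1QC without the filter was 2.23 (SE 0.83), with an adjusted P of 0.549 in edgeR. C1QC had 1 count in the 10 dogs high in small RNA and 48 in the other 21 dogs. C1QB and C1QC were at 0 counts or near it in most dogs, where a change was not detectable.

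**Figure D2:**
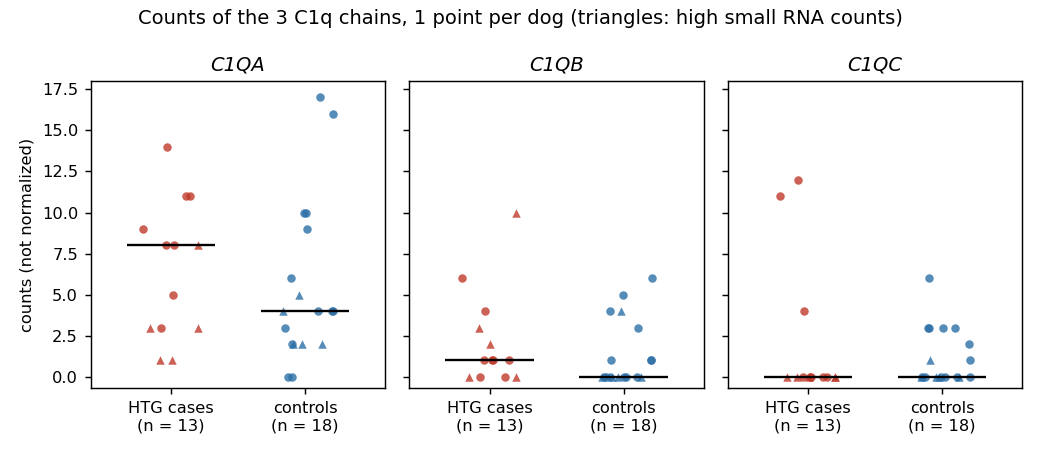
Counts of C1QA, C1QB and C1QC without normalization, 1 point per dog in the 13 HTG cases and 18 controls, with the group median as a bar and triangles for the 10 dogs with high small RNA counts. No dog has more than 17 counts of a chain, and C1QB and C1QC lie at 0 in 14 and 20 dogs.

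C3 (ENSCAFG00000018625), the central component, ran from 2.90 to 246 CPM, an 84.9-fold range. The lowest, median and highest levels were 11.2, 32.7 and 246 CPM in the cases. In the controls they were 2.90, 8.72 and 162 CPM. All 13 cases again lay above the control median and 12 controls lay below the lowest case, but control_12 (162 CPM) and control_09 (118 CPM) were higher than all cases except case_11 (246 CPM) and case_01 (171 CPM). The log2 fold change, cases over controls, was 1.36 (SE 0.57), and the adjusted P was 0.405 in edgeR. It was 0.59 (SE 0.37) with the neutrophil marker score as a covariate, 0.76 (SE 0.62) with the monocyte marker score, 1.95 (SE 0.67) with the platelet marker score and 0.76 (SE 0.53) with age. Of the neutrophil markers, 1 of 5, MMP9, had an unadjusted P under 0.05 in edgeR and was higher in cases, as were 5.04% of all genes tested. The sums of the 5 markers were 4695 to 8839 CPM in cases and 3055 to 14792 CPM in controls. MMP9 was itself among the genes most like C3 (r = 0.926), so the neutrophil score partly sets C3 against a gene that follows it. What this covariate takes from the difference of C3 was not tested.

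Of the alternative pathway, CFP (ENSCAFG00000015163) had median levels of 63.6 CPM in cases and 62.3 CPM in controls, with ranges of 52.1 to 84.9 and 35.2 to 80.2 CPM. CFP is a gene of the X chromosome, and its female minus male difference was -0.04 (95% interval -0.25 to 0.18). CFD (ENSCAFG00000028817), also made by adipocytes, had medians of 290 and 282 CPM and ranges of 241 to 417 and 183 to 473 CPM. The case-control log2 fold changes of CFP and CFD were 0.13 (95% interval -0.08 to 0.34) and 0.02 (95% interval -0.17 to 0.21). The highest CFD levels were those of control_13, case_06 and control_04, and the lowest was that of control_07, which also had the lowest CFP.

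Of the receptors, C3AR1 (ENSCAFG00000025436) had lowest, median and highest levels of 3.70, 5.50 and 10.2 CPM in the cases. In the controls these were 2.17, 4.04 and 9.06 CPM. The cases lay above the control median in 12 of 13 dogs, and the log2 fold change was 0.45 (SE 0.19) with an adjusted P of 0.419 in edgeR. C5AR1 (ENSCAFG00000004175) had medians of 311 and 302 CPM, ranges of 241 to 418 and 169 to 468 CPM, and a log2 fold change of -0.02 (95% interval -0.29 to 0.24). With all 3 marker scores described below as covariates it was -0.35 (SE 0.11, adjusted P = 0.405 in edgeR). The 4 dogs with the most C5AR1 were all controls. Among them was control_03, with the lowest TMM factor of all dogs (0.527) and the fewest C5AR1 counts (3439).

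CD55 (ENSCAFG00000024748) had lowest, median and highest levels of 384, 636 and 1188 CPM in the cases. In the controls they were 341, 500 and 1083 CPM. It lay above the control median in 10 of 13 cases, with a log2 fold change of 0.38 (SE 0.16) and an adjusted P of 0.409 in edgeR. It was 0.19 (SE 0.15) with the neutrophil score fitted as well. The 5 highest levels were those of case_05, control_09, case_06, case_09 and case_08.

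The case-control contrast was also fitted on each side of the small RNA split, and no member's difference between the sides had an unadjusted P under 0.05. For C3AR1 the log2 fold changes were 1.01 (SE 0.32) among the 10 dogs with high and 0.21 (SE 0.22) among the 21 dogs with low small RNA counts. For CD55 they were 0.68 (SE 0.23) and 0.15 (SE 0.19). The difference between the sides was 0.81 (SE 0.40, unadjusted P = 0.0517) for C3AR1 and 0.54 (SE 0.33, unadjusted P = 0.105) for CD55, both with an adjusted P of 0.970 in edgeR. Over all genes tested 0 passed this test of the difference (0%), and 605 had an unadjusted P under 0.05. C1QTNF6 differed by 1.76 (SE 0.70) and 1.15 (SE 0.31) on the high and low sides, and C3 by 1.84 (SE 0.61) and 1.28 (SE 0.76).

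**Figure D3:**
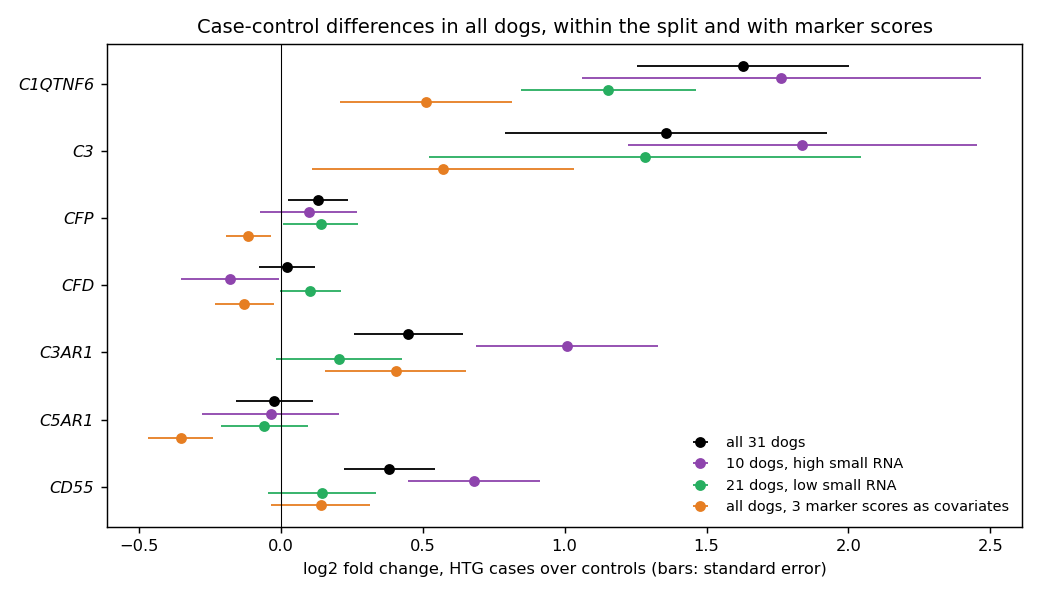
Log2 fold changes of the 7 genes, HTG cases over controls, with their standard errors as bars, in all 31 dogs, in the 10 dogs with high and the 21 dogs with low small RNA counts, and in all dogs with the platelet, neutrophil and monocyte marker scores as covariates. With the 3 scores C1QTNF6 stands at 0.51 in place of 1.63 and C3 at 0.57 in place of 1.36, while C3AR1 stands at 0.40 in place of 0.45. The neutrophil score holds MMP9, a gene that follows C3 (r = 0.926), and the cause of these changes was not tested.

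The rest of the pathway was described from lists of 59 further complement and C1q family genes, of which 43 had a row and 14 passed the filter. By edgeR's test 0 of the 14 were called between cases and controls, where 0.0359% of all genes tested were. An unadjusted P under 0.05 was seen for 1 of the 14, beside 9.81% of all genes tested in either direction. That gene was CFI, the protease that cleaves C3b and C4b, at 4.39 ± 0.82 CPM (SD, n = 13) in cases and 3.40 ± 1.03 CPM (SD, n = 18) in controls, with a log2 fold change of 0.37 (SE 0.14). Of the 14 genes 8 had a higher fitted level in cases, with a median log2 fold change of 0.07, beside a median of -0.02 and 45.5% of genes higher in cases over all genes tested.

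Among recognition molecules and C1 proteases, COLEC11, a collectin of the lectin pathway, differed by 0.49 (SE 0.26) and C1R, a protease of the C1 complex, by 0.09 (SE 0.45), and no other gene of this list passed the filter. C5, the only terminal component to pass it, differed by -0.28 (SE 0.41). Of the regulators besides CFI, C4BPB, a chain of the C4b-binding protein, differed by -0.47 (SE 0.39) and CD59, the inhibitor of the membrane attack complex, by -0.19 (SE 0.30). The receptors were the best represented list, with 7 of 8 rows past the filter and differences between -0.12 (SE 0.15) for C5AR2 and 0.25 (SE 0.32) for CD93. ITGAX, a subunit of complement receptor 4, differed by 0.12 (SE 0.12). None of the 10 relatives of C1QTNF6 with a row, adiponectin (ADIPOQ) among them, passed the filter.

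The members were then set against measures that the rule for choosing them did not use. Between the sexes, with group as a covariate, 0 of 7 genes were called by edgeR, where 0.122% of all genes were, and 1 had an unadjusted P under 0.05. This was C1QTNF6, with a female minus male difference of -0.92 (SE 0.37, adjusted P = 0.959 in edgeR). Over all genes 680 of 13918 had an unadjusted P under 0.05. With the small RNA split as a covariate it was -0.60 (SE 0.34), and 0 members were then under 0.05. Its levels were 0.460 to 1.97 CPM in the 13 females, with a median of 1.01, and 0.094 to 11.4 CPM in the 18 males, with a median of 1.69. DESeq2 also called 0 of the members, where 27 of 16625 genes were called. At an unadjusted P under 0.05 it had 2 members, C1QTNF6 and C1QC, and 936 genes, counting those without an adjusted P.

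With triglycerides, entered as log10 of the concentration, no slope of the members was called. Within the 13 cases edgeR called 0 of 7 members and 0 of 11873 genes (0%), with 0 members and 736 genes at an unadjusted P under 0.05. DESeq2 called 0 of 10 members and 5 of 23096 genes there, with 1 member, C1QA, and 1018 genes at an unadjusted P under 0.05. Within the 18 controls edgeR called 0 of 7 members and 0 of 12421 genes (0%), with 1 member and 1450 genes at an unadjusted P under 0.05. DESeq2 called 0 of 10 members and 2 of 24730 genes in controls, with 1 member and 1944 genes at an unadjusted P under 0.05. The member under 0.05 in edgeR was CD55, with a slope of 1.46 (SE 0.70, adjusted P = 0.427 in edgeR) on the log2 scale for each 10-fold of triglycerides. Without control_03, or with the small RNA split as a covariate, 0 members were under 0.05 in edgeR. The slope of C1QTNF6 within cases was 0.35 (95% interval -2.42 to 3.12) and that of C3 was 0.70 (95% interval -1.58 to 2.99), so that slopes of several doublings in either direction were not detectable with 13 dogs.

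With the body condition score, a veterinary scale of body fat, edgeR called 0 of 7 members and 0 of 13918 genes (0%), with 0 members and 725 genes at an unadjusted P under 0.05. DESeq2 called 0 of 10 members and 8 of 25529 genes, with 1 member, C1QB, and 1117 genes at an unadjusted P under 0.05. For CFD the slope per point of the score was -0.02 (95% interval -0.11 to 0.08). Adipocyte markers summed to at most 1.19 CPM in a dog and none passed the filter.

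Between the sides of the small RNA split, with group as a covariate, C1QTNF6 was 1.20 higher on the log2 scale (SE 0.34, adjusted P = 0.0229 in edgeR) on the side with high counts. It was 1 of 7 members called where 7.57% of all genes were, a share too common to mark the member out. The lowest, median and highest levels were 0.569, 2.15 and 11.4 CPM in the 10 dogs with high counts. In the 21 dogs with low counts they were 0.094, 1.01 and 2.82 CPM. Without case_01 and control_03 the difference was 1.10 (SE 0.37, adjusted P = 0.0800 in edgeR), which ends the call. The platelet markers moved with the split as well. Their summed level was 231 to 716 CPM (median 417) on the high side and 110 to 561 CPM (median 262) on the low side, and the platelet score defined below averaged 0.56 ± 0.52 (SD, n = 10) and -0.27 ± 0.64 (SD, n = 21). Their part in the difference of C1QTNF6 between the sides was not tested.

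Because whole blood mixes cells, the members were compared with scores of platelet, neutrophil and monocyte markers, each the mean centred log2 CPM of the marker genes. The platelet score rested on GP9, GP1BA, GP6 and TREML1, the neutrophil score on CSF3R, CXCR2, S100A8, S100A12 and MMP9, and the monocyte score on 7 genes with CSF1R, VCAN and LYZ among them. The platelet score was 0.74 higher in cases (permutation test with 100000 resamples, two-sided, P = 0.00263; 11 of 13 cases above the control median). The neutrophil score was 0.45 higher (P = 0.0301 by the same permutation test; 12 of 13) and the monocyte score 0.15 higher (P = 0.0753 by the same permutation test; 9 of 13). Within the neutrophil score the case-control log2 fold changes were 1.05 (SE 0.49) for MMP9, 0.28 for S100A8 and 0.11 for S100A12, and -0.02 for both CSF3R and CXCR2, with an SE of 0.14 and 0.13. Their part in the case-control differences was not tested. In each fit below, group was a covariate, so a slope follows dogs of the same group, and score and gene come from the same library.

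C1QTNF6 followed the platelet score, with a slope of 1.39 on the log2 scale per unit of score (SE 0.20, adjusted P = 9.2e-06 in edgeR). It was the only one of 7 members called on this score, where 11.4% of all genes were in either direction and 7.31% with a positive slope. Within cases alone the slope was 1.86 (SE 0.31) and within controls alone 1.13 (SE 0.22), and the difference between them was not tested. C1QTNF6 was called in both, where 119 of 11873 genes were in cases and 608 of 12421 in controls. Its slope was 1.39 (SE 0.20) with all 3 scores in 1 fit and 1.36 with the small RNA split as a covariate. The 4 dogs with the highest platelet scores, case_09, case_06, control_03 and case_05, held the 4 highest levels of C1QTNF6. The lowest platelet score was that of control_09, which also had the lowest C1QTNF6. Without the 2 dogs farthest from the median score the slope was 1.45 (SE 0.21).

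The genes whose levels were most like those of C1QTNF6 over the 31 dogs were ENTPD6 (Pearson r = 0.894), DPEP2 (r = 0.868), PTGS1 (r = 0.863), TUBB1 (r = 0.863) and CD151 (r = 0.855). Their Spearman rho values lay between 0.844 and 0.867. PTGS1, the cyclooxygenase that makes thromboxane precursors in platelets, and TUBB1, the beta tubulin of platelets, are platelet genes outside the score, and CD151 is a tetraspanin carried by platelets among other cells. Within the cases r lay between 0.805 and 0.903 and within the controls between 0.772 and 0.877, and r was 0.833 to 0.857 without the 2 dogs farthest from the median of C1QTNF6. As these genes were picked for the highest r, no test was made. For C1QA the most alike genes were EIF4E (r = 0.652), ZBTB6 (r = 0.615), DAAM1 (r = 0.571), ENSCAFG00000031852 (r = 0.568) and YIPF2 (r = 0.565), weak values for a gene with a median of 4 counts per dog.

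On the neutrophil score 4 of 7 members were called, all with a positive slope, where 30.4% of all genes were called in either direction and 17.8% with a positive slope. They were C3 with 2.41 (SE 0.29, adjusted P = 3e-07 in edgeR), C5AR1 with 0.49 (SE 0.10), CD55 with 0.45 (SE 0.12) and CFP with 0.30 (SE 0.08). CFD had a slope of 0.02 (95% interval -0.16 to 0.21) and C3AR1 of -0.05 (95% interval -0.44 to 0.35). In controls alone the same 4 were called, where 2910 of 12421 genes were. In cases alone only C3 was called (2.99, SE 0.57), where 163 of 11873 genes were. Without the 2 dogs farthest from the median score CD55 lost the call (0.35, SE 0.17, adjusted P = 0.140 in edgeR).

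The score was also divided into its neutrophil genes. On S100A8, S100A12 and MMP9 alone 4 of 7 members were called (C3, C5AR1, CD55 and CFP), where 2964 of 13918 genes were. On CSF3R and CXCR2 alone 3 of 7 were called (C5AR1, CD55 and CFD), where 4303 of 13918 genes were. With S100A8, S100A12 and MMP9 alone the slope of C3 was 1.72 (SE 0.15). With CSF3R and CXCR2 alone, receptors at the surface of the mature neutrophil, it was -0.39 (SE 0.86, adjusted P = 0.754 in edgeR). C5AR1 had slopes of 0.26 (SE 0.08) with the former and 0.84 (SE 0.12) with the latter and was called on both. The scores differ in spread, so the sizes of these slopes are not comparable between them. CFD was called on CSF3R and CXCR2 alone (0.34, SE 0.12, adjusted P = 0.0280 in edgeR), and CFP was not (0.20, SE 0.14). C3 was called on the former score and not on the latter, and the difference between its slopes was not tested. MMP9 is itself among the 8 genes most like C3 over the dogs (r = 0.926). These alternative scores were chosen after the data were seen.

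The 4 dogs with the most C3 had neutrophil scores above 0. Those of control_09, case_11 and case_01 were the highest of all dogs, at 1.46, 0.87 and 0.81, and control_12 stood at 0.53. The next dogs by C3, case_05 and case_04, ranked 8 and 10 on the score. The lowest score, -1.09, was that of control_10, which had the lowest C3 and the lowest C5AR1. CD177, a glycoprotein of neutrophil surface and granules, was the gene most like C3 (r = 0.978, rho = 0.973), with 257 CPM in case_11, 151 CPM in case_01, 129 CPM in control_12 and 94.1 CPM in control_09. The correlation with CD177 was 0.974 in cases, 0.969 in controls and 0.971 without the 2 dogs farthest from the median of C3. CP, which encodes ceruloplasmin (r = 0.955), and the granule genes CAMP (r = 0.951) and LTF (r = 0.946), for cathelicidin and lactoferrin, came next. The naming rule does not cover these 4 genes, which were picked with their values in view, and no test was made.

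On the monocyte score CFP alone was called among the 7 members, with a slope of 0.95 (SE 0.17, adjusted P = 0.00182 in edgeR), where 1.06% of all genes were in either direction and 1.04% with a positive slope. The slope was 0.90 (SE 0.25) within cases and 0.95 (SE 0.23) within controls, neither called (adjusted P = 0.342 and 0.140 in edgeR). It was 0.82 (SE 0.15) with all 3 scores in 1 fit, in which the slope of CFP on the neutrophil score was 0.23 (SE 0.06), and both were called. C3 had a large but uncertain slope on the monocyte score (2.91, SE 1.53), and CFD had 0.48 (SE 0.20, adjusted P = 0.403 in edgeR). C3AR1, a receptor of monocytes as well as granulocytes, had -0.53 (95% interval -1.35 to 0.29) and was called on none of the 3 scores.

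**Figure D4:**
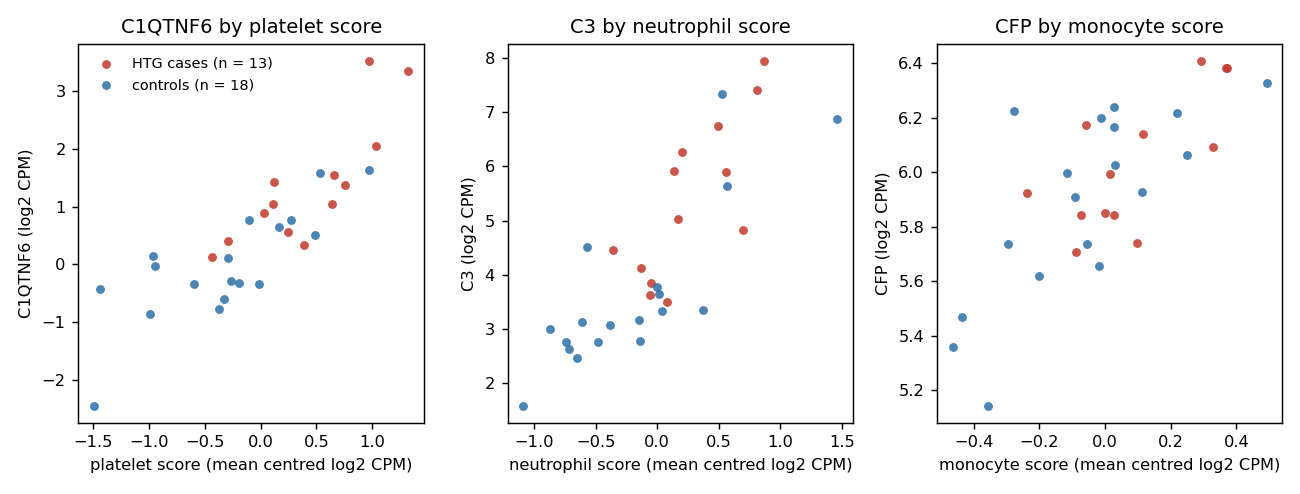
Log2 CPM of C1QTNF6 by platelet score, of C3 by neutrophil score and of CFP by monocyte score, 1 point per dog, with the 13 HTG cases in red and the 18 controls in blue. The slopes with group as a covariate are 1.39, 2.41 and 0.95 on the log2 scale, and that of CFP was called in neither group alone.

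**Figure D5:**
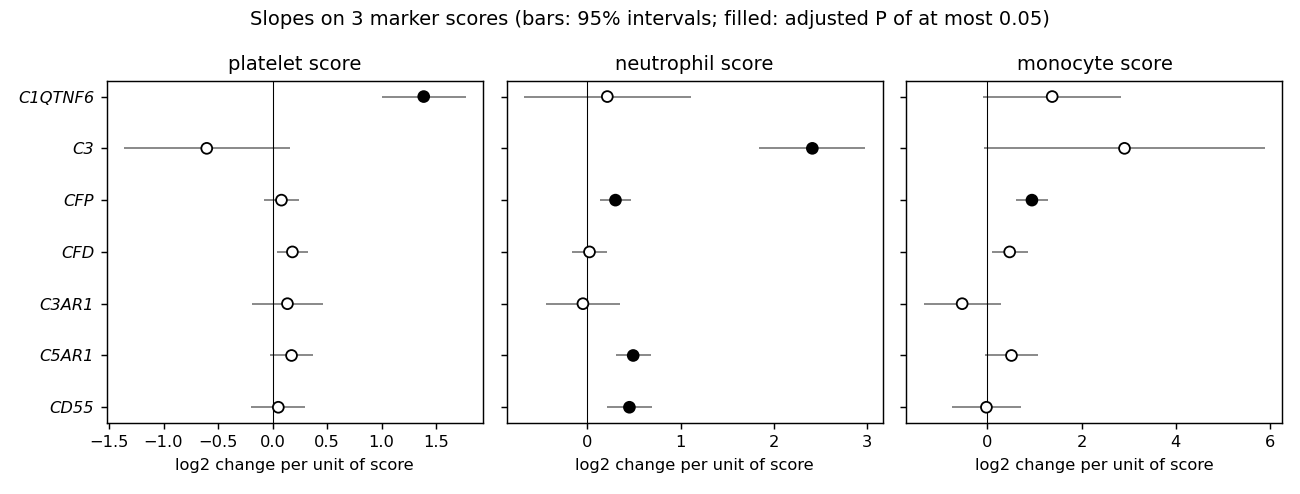
Slopes of the 7 genes on the platelet, neutrophil and monocyte scores, in log2 change per unit of score with 95% intervals and group as a covariate, with filled points for an adjusted P of at most 0.05 over all genes. Filled points are C1QTNF6 on the platelet score, C3, CFP, C5AR1 and CD55 on the neutrophil score, and CFP on the monocyte score, and C3AR1 and CFD have open points throughout.

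The members did not form a single block across dogs. Over the 21 pairs of the 7 genes, Pearson r of log2 CPM ran from -0.11 to 0.58, and 17 pairs were above 0. C3 and CFP were the most alike (r = 0.585, rho = 0.618), with 0.554 in cases, 0.560 in controls and 0.489 without the 2 dogs farthest from the median of C3. CFP and C5AR1 had r = 0.465 (rho = 0.476), with 0.442 in cases and 0.486 in controls. C1QTNF6 and C3, with the largest case-control differences, had r = 0.300 (rho = 0.477) over all dogs, but 0.158 in cases and -0.09 in controls. C1QTNF6 and CD55 had 0.640 in cases and -0.236 in controls, a difference that was not tested. The pairs share libraries and scaling, and these values are descriptions.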

How the data were processed

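The authors trimmed reads with Trimmomatic, checked them with FastQC, aligned them with HISAT2 to the Boxer (Dog10K_Boxer_Tasha) genome and counted pairs with both mates mapped. The annotation behind the Ensembl identifiers is not given in the sources used here, and the labels and the methods differ on the RNA extraction kit and on polyA against total RNA. The deposited values were raw counts per gene and dog, without normalization. All 31 columns were used, none was identical to another, and group and sex came from the labels. Nothing states repeat samples of a dog.

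The members and lists were chosen with earlier results of these data known. In R 4.3.3, edgeR 4.0.16 (TMM, filterByExpr by group, glmQLFit, glmQLFTest, Benjamini-Hochberg over all genes tested, threshold 0.05) gave every test across genes, and the marker scores were compared by permutation. SE is the log2 change over the root of F, and 95% intervals are 1.96 SE. CPM on the log2 scale has a prior count of 2. Triglycerides, body condition score and age were read from the study's table of dogs. Alternatives were DESeq2 1.42.0, limma-voom 3.58.1, RLE scaling, no filter, covariates, each sex, each side of the split and dogs left out. Those by group, with all scores together, without the farthest dogs, with part of the neutrophil markers, and DESeq2 with the split were chosen after seeing the data. Batch, the covariate of the study's own model, was left out since the labels do not give it.

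Named were all 10 members, in each complement list the 3 genes with the smallest P and any called, and the 5 genes most like C1QTNF6 and C1QA. The fits were tested on simulated counts. Figures were drawn in Python 3.11.15 with matplotlib 3.10.9. Intervals and floors cover counting error or spread between dogs only.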

Additional observations from a re-analysis of the deposited data

Results flagged for a closer look

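The 7 genes were each checked in 7 sets of 5 to 10 dogs, of the same group and sex or of the same group and side of the small RNA split. In 8 of these 49 checks a dog lay farther from the rest than Dixon's 95% limit allows. Chance gives about 1 in 20 for independent, normally distributed values, and these sets share dogs and hold skewed CPM values. For C3 these were case_11 among the 8 male cases (246 CPM, next 108), control_12 among the 8 female controls (162 CPM, next 13.5), control_09 among the 10 male controls (118 CPM, next 49.8) and control_03 among the 5 controls with high small RNA counts (49.8 CPM, next 13.5). For CFD they were case_06 (417 CPM, next 290) and control_13 (473 CPM, next 331), each among the 5 dogs of its group with high small RNA counts. For CD55 they were control_08 among the 8 female controls (667 CPM, next 538) and control_09 among the 10 male controls (1083 CPM, next 676). The TMM factor of control_03 was the lowest of all dogs (0.527).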

How the results depend on the processing

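DESeq2, the fit without case_01 and control_03 and DESeq2 with the small RNA split as a covariate each called 1 member between cases and controls, against 0 in edgeR. On the split the fit without case_01 and control_03 called 0 members against 1. On the monocyte score cases alone and controls alone each called 0 against 1, and on the neutrophil score cases alone called 1 against 4, with fewer dogs. Of the called slopes 1 changed sign, that of C3 on CSF3R and CXCR2 alone (-0.39). The sign changes that follow are of values not called in all dogs. Between cases and controls C5AR1 was 0.0035 without case_01 and control_03, 0.015 in limma-voom, 0.0023 with age and 0.052 in females, CFD was -0.10 with the platelet score, -0.040 with the monocyte score, -0.13 with all 3 and -0.18 on the high side, and CFP was -0.0064 with the monocyte score and -0.11 with all 3. Without case_01 and control_03 the sex difference was 0.0095 for C5AR1, the triglyceride slope within cases was -1.50 for C3, -0.19 for CFP, 0.044 for CFD and 0.40 for CD55, that within controls was -0.64 for C1QTNF6, -0.017 for CFP and -0.079 for CFD, the monocyte slope was 0.083 for CD55 and the neutrophil slope was -0.020 for C1QTNF6. With the split as a covariate the sex difference was 0.018 for C5AR1, the triglyceride slope was 0.18 for CD55 within cases and 1.34 for C3 within controls, the body condition slope was 0.017 for CFD, the neutrophil slope was -0.16 for C1QTNF6 and the platelet slope was -0.14 for CD55. The triglyceride slope of C3 within controls was 0.11 in DESeq2 and 0.089 with RLE scaling. In cases alone the monocyte slope was -0.0031 for CFD and the neutrophil slope was -0.13 for CFD and 0.70 for C3AR1. In controls alone the monocyte slope was 0.029 and the platelet slope -0.12 for CD55. The neutrophil slope was -0.30 for C1QTNF6 and -0.030 for CFD with all 3 scores, -0.030 for C1QTNF6 and -0.036 for CFD on S100A8, S100A12 and MMP9, 0.16 for C3AR1 on CSF3R and CXCR2 and 0.15 for C3AR1 without the 2 farthest dogs. The cause of these changes was not tested.

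Over all genes, the 5 called between cases and controls became 85 in DESeq2, 110 in DESeq2 with the split, 28 without case_01 and control_03, 3 with the body condition score and 0 in limma-voom, with any marker score, on either side of the split or in either sex. The 17 called between sexes became 27 in DESeq2. For triglycerides 0 became 5 in DESeq2 and 5 without the filter within cases, and 2 in DESeq2 within controls. For body condition 0 became 8 in DESeq2 and 16 without the filter. On the monocyte score 148 became 3 in cases, 24 in controls, 260 with all scores and 71 without the farthest dogs. On the neutrophil score 4225 became 163 in cases. On the platelet score 1588 became 704 without case_01 and control_03, 275 with the split, 119 in cases, 608 in controls and 811 without the farthest dogs. Each group held over 10 dogs, so replicates were not left out in turn.

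The replicate numbers did not pair cases and controls. Over 13 pairs the correlation of deviations ran from -0.437 to 0.263, with 3 over 0.1. The replicate block gave 1.25 (SE 0.50) for C1QTNF6, 0 members called and 0 genes called.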

Other observations

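Control_09 stood at or near an extreme for several readouts at once. Among the 31 dogs it had the lowest C1QTNF6 (0.094 CPM), the lowest C3AR1 (2.17 CPM) and the lowest platelet score (-1.49), and it had the highest C5AR1 (468 CPM) and the highest neutrophil score (1.46). Among the controls it had the highest CD55 (1083 CPM), and its C3 (118 CPM) was exceeded among them only by that of control_12. Control_10 had the lowest C3 (2.90 CPM), the lowest C5AR1 (169 CPM) and the lowest neutrophil score (-1.09).

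Of the macrophage markers, 5 were tested between cases and controls and 0 were called by edgeR, where 0.0359% of all genes tested were. An unadjusted P under 0.05 was seen for 2, chosen here after their values were seen, beside 9.81% of all genes tested in either direction. SIGLEC1, a macrophage lectin, was at 45.8 ± 18.7 CPM (SD, n = 13) in cases and 32.6 ± 13.5 CPM (SD, n = 18) in controls, with a log2 fold change of 0.50 (SE 0.19, adjusted P = 0.345 in edgeR). MRC1, the mannose receptor, was at 2.95 ± 1.26 CPM in cases and 4.45 ± 2.81 CPM in controls (-0.60, SE 0.29, adjusted P = 0.510 in edgeR). C1QA, a gene of tissue macrophages, had 185 counts in the same libraries.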
